A study of Homo sapiens with 23 samples.

Results

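The 172 protein-coding olfactory receptor genes of human chromosome 11 were examined in ChIP-seq peak lists of SW480, a cell line grown from a human colorectal tumour. They were all GENCODE 44 protein-coding genes of that chromosome whose symbol is OR, digits, letters and digits, and made up 172 of the 20033 protein-coding genes. No measured value entered this rule, but the genes were chosen with earlier results of these data known. ChIP-seq pulls down chromatin with an antibody against a histone mark and sequences its DNA, and a peak, called a region here, is a stretch in which fragments passed a threshold over background.

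Antibodies against propionylated (pr), butyrylated (bu) and acetylated (ac) lysine 18 of histone H3 and lysine 12 of histone H4 had been used. The propionyl marks, H3K18pr and H4K12pr, came from cells kept in 10 mM sodium propionate (NaPr), and the butyryl marks, H3K18bu and H4K12bu, from cells kept in 1 mM sodium butyrate (NaBu). H3K18ac and H4K12ac were measured in NaPr, in NaBu and in untreated cells. These 10 groups had 2 replicate libraries each, 20 immunoprecipitated libraries in all, and there was 1 input library of sheared chromatin without immunoprecipitation for each condition. Treatment lasted 12 to 16 h, and nothing in the labels says that the 2 replicates came from separate cultures.

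Olfactory receptors are G protein-coupled receptors with which sensory neurons of the nose detect odorants. Each mature neuron transcribes a single allele of a single receptor gene, and in other cell types the genes lie silent in compact chromatin that carries heterochromatin marks. Class I receptors (families 51 to 56) sit together in one cluster beside the beta-globin genes, and class II receptors form the other clusters. Acylation of histone tails, acetylation above all, is known from active promoters and enhancers. Transcripts were not measured in these lists, so that the silence of the genes in SW480 is background and not a result.

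Of the 172 genes, 55 were class I and 117 class II. They came from 11 families and fell into 11 clusters of genes less than 500 kb apart. Cluster 1 held all 55 class I genes, from OR52B4 to OR52W1 (hg38, chr11:4367263-6200186), and the class II genes were most numerous in cluster 7, with 48 genes from OR4A16 to OR5AK2 (chr11:55343201-56989843). The gene bodies had a median of 1082.5 bp and reached 202209 bp at OR51B5, and 97 of them were shorter than 2000 bp. Each gene was measured over its body with 1 kb on both sides, its window, and the windows together spanned 1290 kb. Of the 172 windows, 49 held a protein-coding or lncRNA gene from outside the receptor family and 123 did not. The windows of 20 receptor genes met that of another receptor gene, so that 115 stood free of both. OR51B5 overlaps the annotated transcripts of the globin genes HBG2 and HBE1 and spans several shorter receptor genes.

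Regions that recurred over receptor genes were few, and the 3 sites held by the most immunoprecipitated libraries are shown first, since the recurrent signal of the largest number of libraries lies there. Each sequence is the hg38 plus strand around the median summit, in lower case with CG dinucleotides in capitals.

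OR9Q1 intron, chr11:58058574-58058873: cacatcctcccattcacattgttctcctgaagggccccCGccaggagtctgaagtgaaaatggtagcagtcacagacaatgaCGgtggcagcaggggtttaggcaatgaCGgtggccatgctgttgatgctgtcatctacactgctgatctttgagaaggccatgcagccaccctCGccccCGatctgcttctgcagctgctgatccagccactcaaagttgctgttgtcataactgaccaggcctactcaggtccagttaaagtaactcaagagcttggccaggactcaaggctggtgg

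OR51B5 intron, chr11:5364925-5365224: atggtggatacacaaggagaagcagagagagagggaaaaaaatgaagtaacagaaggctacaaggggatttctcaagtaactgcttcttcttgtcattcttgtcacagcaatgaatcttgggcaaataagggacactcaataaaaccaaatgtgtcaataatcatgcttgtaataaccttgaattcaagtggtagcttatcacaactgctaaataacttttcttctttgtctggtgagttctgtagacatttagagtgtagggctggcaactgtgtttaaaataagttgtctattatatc

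OR9G1 coding exon, chr11:56700693-56700992: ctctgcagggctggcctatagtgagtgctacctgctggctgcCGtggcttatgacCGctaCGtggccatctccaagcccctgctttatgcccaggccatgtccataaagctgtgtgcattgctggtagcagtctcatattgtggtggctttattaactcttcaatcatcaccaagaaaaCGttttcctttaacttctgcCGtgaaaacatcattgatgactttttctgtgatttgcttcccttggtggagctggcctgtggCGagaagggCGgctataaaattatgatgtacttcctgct

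The OR9Q1 site held regions of 9 libraries, the OR51B5 site of 8 and the OR9G1 site of 7. Their GC content was 54.0%, 37.0% and 48.7%, with 5, 0 and 7 CG dinucleotides in the 300 bases. Each sequence was divided into 10 pieces of 30 bases to find near-identical copies. All 10 pieces of the OR9Q1 and OR51B5 sites occurred once in hg38, and 9 of 10 of the OR9G1 site did. The OR9Q1 site also lies in a lncRNA annotated on the opposite strand, and the OR51B5 site lies within the annotated spans of HBG2 and HBE1, so neither is a position of a receptor gene alone.

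Promoters of these genes differ from most promoters in base composition. RefSeq promoters (GRCh38.p14, 250 bases before to 50 after the start) were matched for 133 of the 172 genes. Their median GC content was 37.0% and their median number of CG dinucleotides 1, against 63.0% and 22 over 15345 protein-coding genes. No CG was present in 27.1% of the receptor promoters and in 1.88% of all, and 10 or more in 0.752% against 73.6%. The letters TATAAA, searched on both strands, occurred in 35.3% of the receptor promoters and in 9.63% of all. Receptor genes of other chromosomes had values close to these, with a median GC content of 38.3%, a median of 1 CG and TATAAA in 34.5% of 177 promoters. The promoter of OR5AS1 is shown as that of a gene with no region in any of the 23 lists.

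OR5AS1 promoter, plus strand, chr11:56027404-56027703: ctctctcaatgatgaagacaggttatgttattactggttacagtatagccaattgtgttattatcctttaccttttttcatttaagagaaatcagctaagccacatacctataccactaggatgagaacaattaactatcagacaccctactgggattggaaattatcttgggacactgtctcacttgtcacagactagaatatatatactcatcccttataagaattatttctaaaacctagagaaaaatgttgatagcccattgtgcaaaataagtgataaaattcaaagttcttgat

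It holds no CG dinucleotide and has a GC content of 33.3%.

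Lists differed in length and depth, which bears on all counts below. Immunoprecipitated lists held 8158 to 208823 regions, and input lists 30386 to 93923. In 13 lists the fragment pileup could be solved from the deposited fold and p, and depth lay between 3.38 and 38.6 fragments for each kb of genome, with the propionyl libraries the shallowest. In the 8 NaBu libraries and in the NaBu and untreated inputs the solved pileups were not whole numbers, and their depth is unknown. H3K18ac NaPr replicate 1 stood apart from its replicate. Base pairs in both lists made up 20.2% of those in either for the 2 replicates, but 33.2% with untreated H3K18ac replicate 1 and 31.4% with untreated H4K12ac replicate 1, and its replicate ranked 8 among the other 19 libraries. The main results that rest on it are given without it too. The shortest lists were those of H4K12bu (9642 and 8158 regions), and H4K12ac NaBu replicate 2 had 11680 regions against 88658 in its replicate. It also stood apart, with 12.5% of base pairs shared with its replicate against 35.1% with H4K12bu replicate 1 and 31.1% with H3K18bu replicate 1. The H4K12ac NaPr replicates shared the least of all 10 groups, 11.4%. Replicate 1 was closest to untreated H4K12ac replicate 2 (12.8%), and its own replicate ranked 6. For replicate 2 its own replicate ranked 1.

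Start sites of known marker genes were examined for the labelled tissue. A region lay within 1 kb of the start site in at least 10 of 20 immunoprecipitated libraries for 8 of 12 colon epithelium markers, among them EPCAM (19 libraries), KRT8 and KRT18 (20 each), against 50.7% of all protein-coding genes. KRT20 (1 library), CDX1 and LGR5 (3 each) and CEACAM5 (4) did not reach it. The cut was passed by 1 of 4 blood markers (CD14, with PTPRC at 0), 1 of 4 fibroblast markers (COL1A1), 0 of 3 endothelial markers and 2 of 4 markers of olfactory sensory neurons (GNAL and ADCY3, 14 each). OMP, the marker protein of mature olfactory neurons, had 3 libraries and CNGA2, a channel subunit of odorant signalling, 0. None of the 172 receptor genes reached 10 libraries at its start site, and the most was 5.

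Olfactory receptor windows were covered less than the genome in every immunoprecipitated library and more than the genome in every input. Coverage is the percentage of base pairs inside regions. Its ratio to the percentage over chromosomes 1 to 22, X and Y was between 0 and 0.706 in the 20 immunoprecipitated libraries, with a median of 0.174, and all 20 lay below 1. In the inputs the ratio was 1.75 (NaPr), 1.35 (NaBu) and 1.18 (untreated). The log2 ratio averaged -2.35 ± 1.07 (SD, n = 18 immunoprecipitated libraries with any coverage) against 0.49 ± 0.29 (SD, n = 3 inputs), and the ranges did not overlap. The windows of all protein-coding genes gave ratios of 1.27 to 1.81 in the immunoprecipitated libraries and 1.05 to 1.35 in the inputs. In the untreated input all protein-coding genes (1.35) lay above the receptor windows (1.18).

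**Figure D1:**
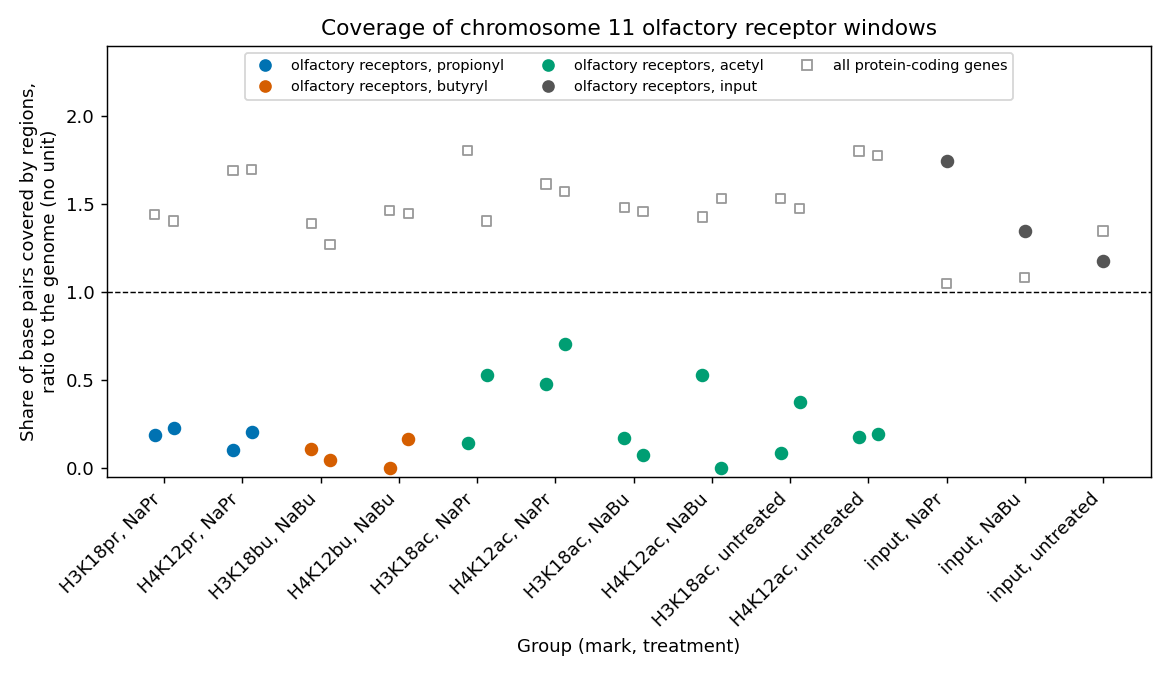
Share of base pairs covered by regions as a ratio to the genome (y axis, no unit) for each library, by group (x axis). Filled points are the olfactory receptor windows of chromosome 11, coloured by mark, open squares are all protein-coding genes, and the dashed line is the genome. All 20 immunoprecipitated libraries lie between 0 and 0.706 and the 3 inputs between 1.18 and 1.75.

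Part of the excess in the inputs belonged to the chromosome. Chromosome 11 as a whole was covered 1.37 to 1.63 times as much as the genome in the immunoprecipitated libraries and 1.42 to 1.95 times in the inputs. Set against chromosome 11 instead of the genome, the receptor windows had ratios of 0 to 0.433 in the immunoprecipitated libraries, again below 1 in all 20. The inputs then had 1.23 (NaPr), 0.928 (NaBu) and 0.605 (untreated), so that 1 of 3 was above 1. Receptor genes of other chromosomes showed 0 to 0.393 in the immunoprecipitated libraries, below 1 in all 20. In the inputs they showed 0.179 (untreated), 0.978 and 1.10, above 1 in 1 of 3. Receptor pseudogenes of chromosome 11 had a median of 0.349 over the immunoprecipitated libraries, below 1 in 18 of 20, and 1.03 to 1.92 in the inputs. Other protein-coding genes of chromosome 11 gave 1.54 to 2.55 and 1.33 to 2.38. A depletion in immunoprecipitated libraries was thus measured with the genome and with the chromosome as reference, and an excess in all inputs with the genome only.

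In counts of genes, 7 and 11 of the 172 held a region in H3K18pr (replicates 1 and 2) and 9 and 12 in H4K12pr. The butyryl lists touched almost none, with 2 and 1 genes in H3K18bu and 0 and 1 in H4K12bu. Among acetyl libraries of NaPr cells, H3K18ac touched 18 and 20 genes and H4K12ac 33 and 34, the most of any immunoprecipitated group. NaBu cells had 13 and 2 genes for H3K18ac and 13 and 0 for H4K12ac, and untreated cells 5 and 23 for H3K18ac and 17 and 15 for H4K12ac. The inputs touched 44 (NaPr), 18 (NaBu) and 14 (untreated). The NaPr input therefore touched more receptor genes than any immunoprecipitated library, although 12 of those lists were longer than its 93923 regions. Over all protein-coding genes the share with a region ran from 18.3% to 85.6% in the immunoprecipitated libraries and from 39.0% to 55.7% in the inputs, against 0% to 19.8% and 8.14% to 25.6% of the receptor genes.

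**Figure D2:**
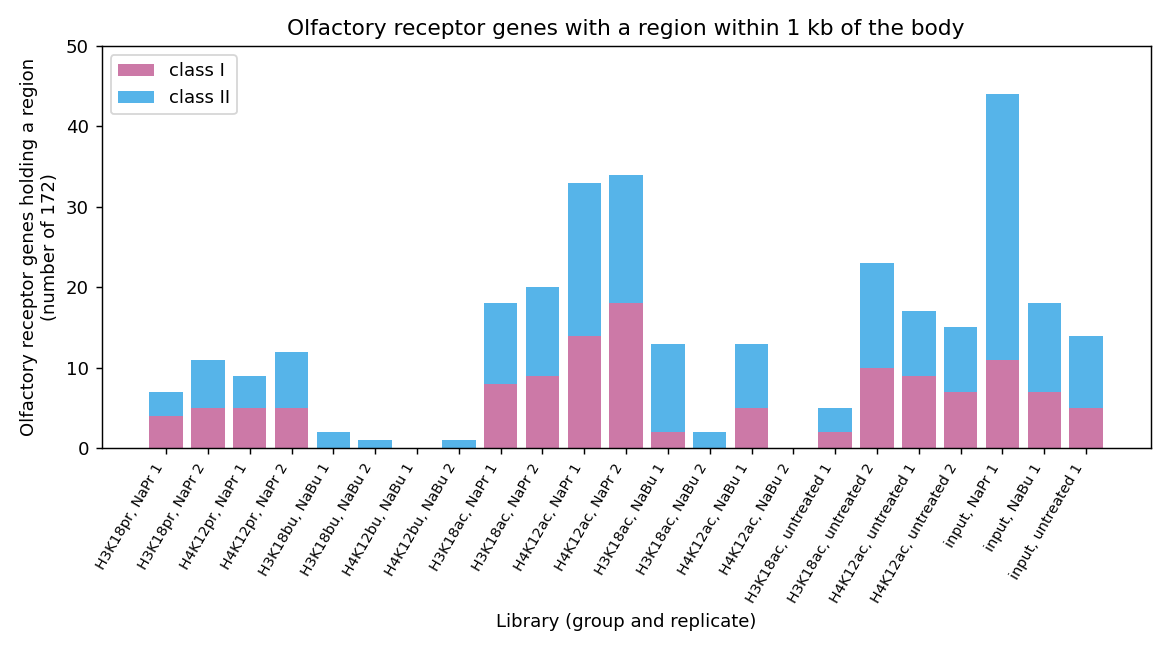
Number of the 172 olfactory receptor genes with a region within 1 kb of the body (y axis) in each library (x axis), with class I genes at the bottom and class II genes stacked above. The NaPr input is highest with 44 genes, followed by both H4K12ac libraries of NaPr cells with 33 and 34, and H4K12bu replicate 1 and H4K12ac NaBu replicate 2 have none.

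Receptor windows are short, with a median of 3.08 kb against 29.5 kb for all protein-coding genes, so counts of genes with a region favour the other genes. At a fixed width of 1 kb on both sides of the start site the receptor genes were still lower. Of their start sites 0% to 9.88% had a region in an immunoprecipitated library, with a median of 2.03% over libraries, against 7.65% to 68.0% with a median of 50.8% for all protein-coding genes. In the inputs the shares were 0% to 15.1% for receptor genes and 2.89% to 17.8% for all genes, with medians of 4.07% and 7.85%.

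The butyryl marks and H4K12ac NaBu replicate 2 are limited by their short lists. H4K12bu replicate 1 had no region at any receptor gene, and a count of 0, with 3 regions of its median width as the upper limit, allows a ratio of up to 0.583. The same limit was 0.487 for H4K12ac NaBu replicate 2. The ratio of H4K12bu replicate 2 rests on 1 region and those of H3K18bu on 2 and 1 regions, so they carry large counting error too. A list of 0 receptor genes does not show that the mark was absent there, and these limits cover counting error only.

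The groups were spread unevenly. H4K12ac in NaPr had ratios of 0.482 and 0.706, both above H4K12pr in the same treatment (0.106 and 0.207) and both above H4K12ac in untreated cells (0.179 and 0.193). H3K18ac in NaPr had 0.142 and 0.533 around the H3K18pr values of 0.190 and 0.230, and overlapped with H3K18ac of untreated cells (0.0889 and 0.378). Both statements rest on H3K18ac NaPr replicate 1. Without it only 0.533 is left, which lay above the H3K18pr and the untreated H3K18ac values. In NaBu, H3K18bu had 0.112 and 0.0468 against 0.170 and 0.0786 for H3K18ac, and H4K12bu had 0 and 0.169 against 0.531 and 0 for H4K12ac, or against 0.531 alone without H4K12ac replicate 2. With 2 libraries against 2 an exact permutation test cannot give a p below 0.33, so these differences were not tested. Propionyl libraries carry another run tag in the list names than acetyl libraries, and NaBu libraries another than untreated ones, so mark or treatment and run tag cannot be told apart there. H4K12ac in NaPr and untreated cells share a tag, and had 25.1 and 28.7 against 38.5 and 32.0 fragments per kb.

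Of the 172 genes, 105 had a region in at least 1 immunoprecipitated library and 67 in none. Without H3K18ac NaPr replicate 1 the first count was 103, and without the 3 lists under 12000 regions 104. Inputs held a region at 62 genes, 18 of which had none in any immunoprecipitated library, and 49 genes had none in any of the 23 lists. Of the 105 genes, 55 had a region in exactly 1 immunoprecipitated library, 50 in at least 2, 10 in at least 5 and 2 in at least 10. The median was 1 library for receptor genes and 14 for all protein-coding genes, and 39.0% of receptor genes against 5.78% of all had no immunoprecipitated library. Bodies of the 67 genes without one had a median of 972 bp and those of the other genes 3837 bp, so window length moved with the count.

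**Figure D3:**
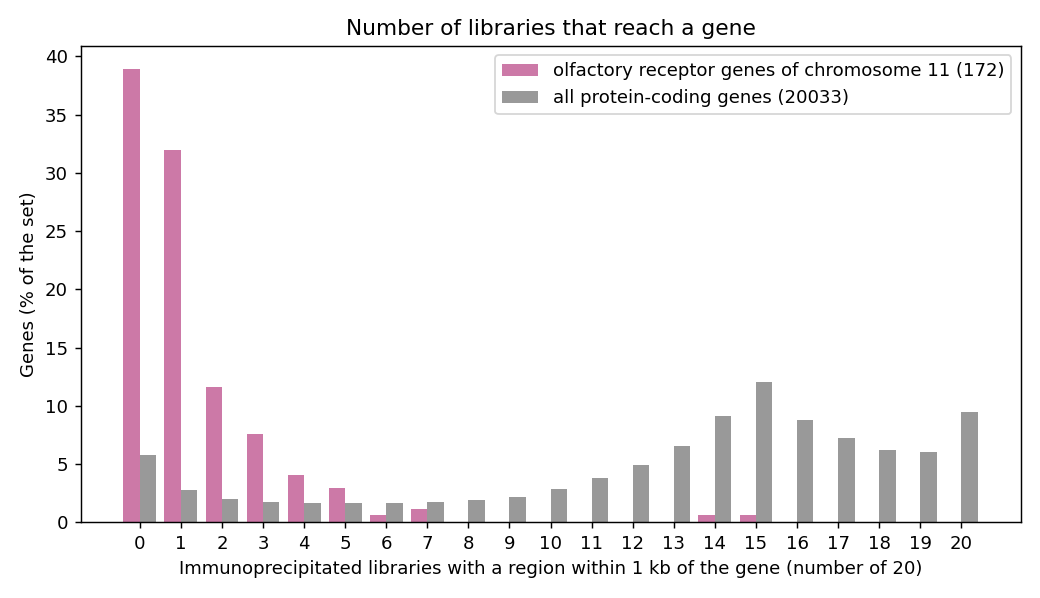
Percentage of genes (y axis) by the number of the 20 immunoprecipitated libraries with a region within 1 kb of the gene (x axis), for the 172 olfactory receptor genes and for all 20033 protein-coding genes. Receptor genes stand mostly at 0 (39.0%) and 1 (32.0%), while 77.0% of all genes were reached by 10 or more libraries.

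Both receptor classes were low. Class I windows had a median ratio of 0.207 over the immunoprecipitated libraries, below 1 in 19 of 20, and class II windows 0.176, below 1 in all 20. The exception was H4K12ac NaPr replicate 2, in which class I windows had 1.01 and class II windows 0.512. In the other replicate the values were 0.561 and 0.431. A region of some immunoprecipitated library was present at 39 of 55 class I and 66 of 117 class II genes, and of some input at 17 and 45. Inputs had ratios of 1.23 to 1.75 for class I and 1.15 to 1.74 for class II.

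The clusters' values overlapped widely over libraries. Mean coverage in the immunoprecipitated libraries was highest in cluster 1, at 0.442% ± 0.396 (SD, n = 20), and in cluster 8 around OR9Q1, at 0.431% ± 0.411. Cluster 7, the largest class II cluster, had 0.271% ± 0.228 and the lowest GC content of the 11, 35.4%. Cluster 6, with 3 genes from OR4C46 to OR4A5, had no region in any immunoprecipitated library and 5.28% coverage in the NaPr input.

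**Figure D4:**
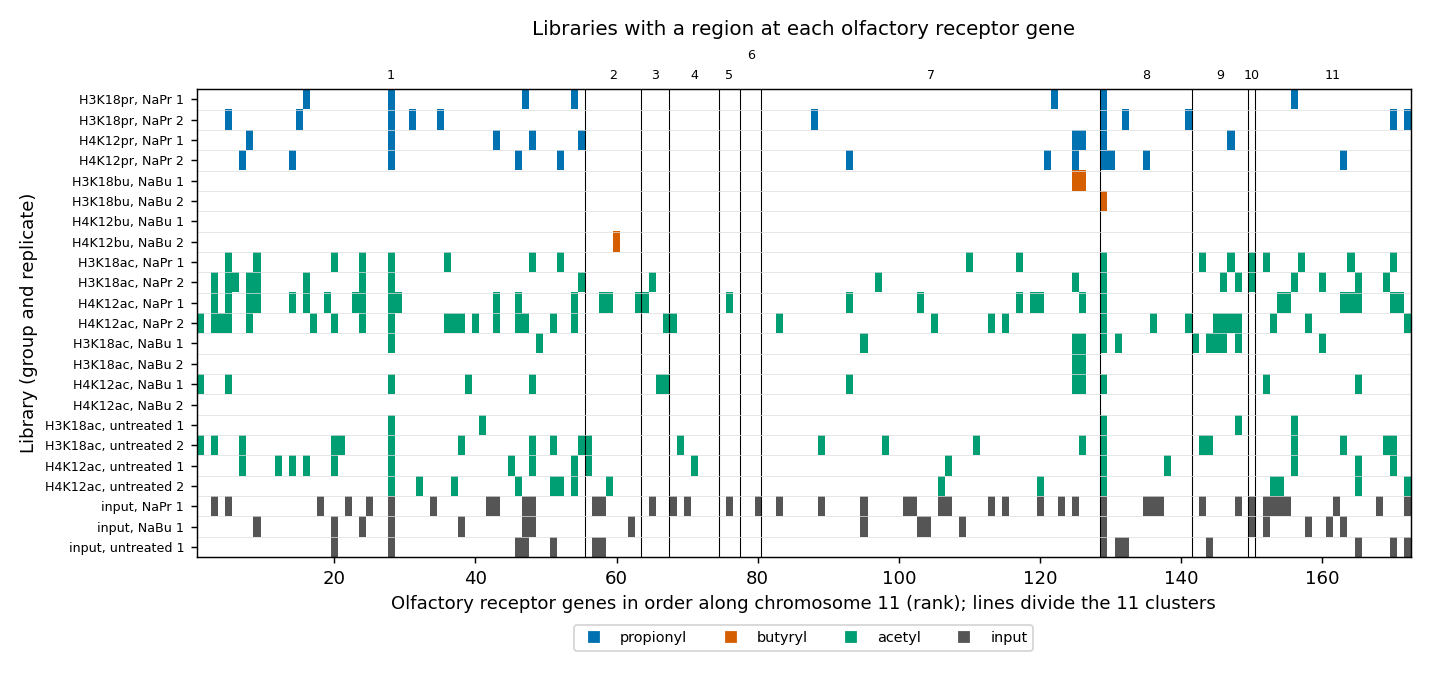
Presence of a region (coloured cell) at each of the 172 olfactory receptor genes in order along chromosome 11 (x axis, rank) in each library (y axis), with lines between the 11 clusters and colours for propionyl, butyryl, acetyl and input. Most cells stand alone, and the 2 columns filled in most rows are OR51B5 and OR9Q1, with 14 and 15 immunoprecipitated libraries.

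There were 327 regions at receptor genes in the immunoprecipitated lists, of 2022255 in all, and 104 in the inputs. Pooled over libraries, which differ in fold, their median fold over local background was 2.66 against 2.92 for all regions, and 31.2% against 47.0% reached 3-fold. Within libraries the median at receptor genes was lower in 13 of 18 and higher in 5, among them H3K18pr replicate 1 (4.14 against 3.73) and H3K18ac NaBu replicate 2 (5.58 against 3.89, from 2 regions). A q-value under 0.05 was reached by 72.5% of them against 82.1% of all. In the 278 of them with a solved pileup the median was 18 fragments over a background of 6.28, and 12 over 3.26 in the NaPr input. Regions touching an input peak made up 5.81% of them and 8.19% of all. The summit lay in an intron of a receptor gene in 144, in coding exon in 81, in untranslated exon in 44, in the upstream flank in 27, in the downstream flank in 23 and beyond the window in 8. Of the 104 input regions, 50 had their summit in an intron and 7 in coding exon. Median GC was 45.4% in the immunoprecipitated regions and 36.4% in the input regions. The mean over the windows, weighted by length, was 38.4%, and chromosome 11 as a whole had 41.5%.

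Replicates rarely shared a region at a receptor gene. Merging overlapping regions gave 259 sites in the immunoprecipitated libraries, of which 224 (86.5%) were held by a single library, 35 by at least 2 and 4 by at least 5. Both replicates of a group held 10 sites, or 3.86%. In H4K12ac NaPr, 2 of 38 regions of replicate 1 and 2 of 46 of replicate 2 overlapped the other replicate, against 20.2% and 22.9% over the genome. In untreated H4K12ac it was 0 of 25 and 0 of 22, against 42.5% and 47.3%. H4K12pr shared more, 4 of 12 and 4 of 16, against 36.7% and 51.3%. The inputs had 100 sites, 96 of them in 1 list, 4 in 2 and 0 in all 3.

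The most widely held site lay in an intron of OR9Q1. H3K18pr had a fold of 7.05 and 4.66 there in replicates 1 and 2, the first being the highest fold of any receptor region. H4K12pr had 4.06 and 3.64 and H3K18ac in untreated cells 3.10 and 3.29. The other 3 libraries were H3K18ac NaPr replicate 2 (3.95), H4K12ac NaPr replicate 1 (2.39) and untreated H4K12ac replicate 1 (2.3). No NaBu library and no input had a region there. Folds at this and the next sites were not scaled between libraries. The median fold over all regions was 3.73 and 3.66 in H3K18pr and 3.27 and 3.51 in H4K12pr. It was lower in acetyl libraries of NaPr cells, with 2.52 and 2.60 for H3K18ac and 2.57 and 2.48 for H4K12ac. Untreated H3K18ac had 3.77 and 2.67 and untreated H4K12ac 2.45 and 2.54.

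The OR51B5 site had folds of 6.35 and 6.33 in H3K18pr, nearly the same in both replicates. H4K12pr had 2.82 and 4.07, and H3K18ac in NaPr 3.31 and 2.88. Untreated H3K18ac replicate 2 (2.29) and untreated H4K12ac replicate 2 (2.77) also held it. One input, that of NaPr, had a region at its edge (2.32), and no NaBu library had one. OR51B5 is the longest of the genes and held regions at many other places of its body.

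The OR9G1 site lay in the coding exon, and there H3K18ac of NaBu cells was highest. The median fold over all regions of these 2 libraries was 3.68 and 3.89, also above that of the NaPr acetyl libraries. H3K18ac in NaBu had folds of 6.08 and 5.84, H3K18bu replicate 1 had 3.81 and H4K12ac NaBu replicate 1 had 2.89. H4K12pr had 3.09 in both replicates and H3K18ac NaPr replicate 2 had 2.73. The NaPr input had a region at the same place with a fold of 2.84, and no untreated library had one. Of the 8 NaBu libraries 4 had no region there. All NaBu libraries share a run tag of their own, so NaBu and tag cannot be told apart here.

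OR9G4, with 7 libraries in its window, showed the same NaBu libraries in its downstream flank, at a site inside the neighbouring pseudogene OR9G3P (chr11:56740448-56740977). H3K18ac in NaBu had 4.15 and 5.33, H4K12ac NaBu replicate 1 had 4.31 and H3K18bu replicate 1 had 3.72, and no other library had a region there. OR10S1 was reached in its short body by 5 libraries. Untreated H3K18ac covered 18.9% and 31.3% of its window, H3K18pr replicate 1 covered 25.9%, untreated H4K12ac replicate 1 covered 19.2% and H3K18ac NaPr replicate 2 covered 8.62%. The site reached 4.11-fold in H3K18pr replicate 1, and no input had a region there.

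**Figure D5:**
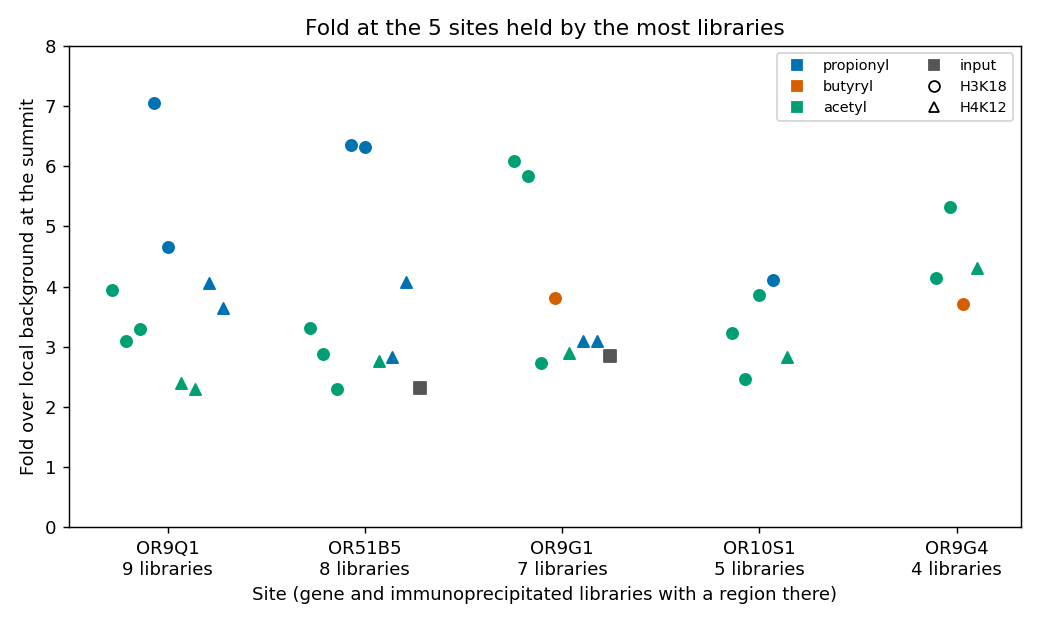
Fold over local background at the summit (y axis) at the 5 sites held by the most immunoprecipitated libraries (x axis), 1 point per library with a region there (the highest where it had several). Colour gives the mark, circles are H3K18, triangles H4K12 and squares inputs. H3K18pr is highest at OR9Q1 (7.05) and OR51B5 (6.35), and H3K18ac of NaBu cells at OR9G1 (6.08) and OR9G4 (5.33). Folds are not scaled between libraries. The median over all regions was 3.73 and 3.66 in H3K18pr, 3.68 and 3.89 in H3K18ac NaBu, and 2.52 and 2.60 in H3K18ac NaPr.

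In the remaining genes with 5 or more libraries the regions lay mostly apart along the body. OR52I2 had 6 libraries, and OR52B2, OR8D1, OR8B8 and OR56A3 had 5 each. The folds of OR8B8 ran from 2.77 to 4.17 in 5 libraries of 5 groups, with no 2 regions overlapping. In the inputs, OR52E5, OR51B5 and OR9Q1 had a region in all 3 lists and OR5W2 and OR6M1 in 2. NaPr input covered 15.2% of the OR5W2 window and NaBu input 4.26%, against 5.63% in H3K18ac NaBu replicate 1 and 0% in the other 19 immunoprecipitated libraries. OR5AS1, OR5B2, OR4C11, OR4P4 and OR4S2, with bodies of 10538, 6884, 5286, 5197 and 4528 bp, were the longest of the genes with no region in any list.

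The histone sites were compared next, which the run tags allow within every stratum of acyl group and treatment. None of the 172 genes was called different, and no other protein-coding gene was (0% higher and 0% lower in H4K12, of 20033). The count over all genes depended on the setting. On percentages over the library mean 1033 of 20033 genes were called. Among genes with a region in 4 or more libraries, a filter that only 17 receptor genes passed, 95 were called. Without single libraries 0 to 344 were called, and 0 of all these calls were receptor genes. Mean differences in the percentage of the window covered were tested by exact permutation, two-sided, within 5 strata (7776 arrangements, smallest p 0.000257), adjusted by Benjamini-Hochberg over all genes. At an unadjusted p under 0.05 there were 478 genes higher (2.39% of all genes) and 2385 lower (11.9%) in H4K12, and 0 receptor genes in either direction. The lowest p of a receptor gene was 0.0833 and its lowest adjusted p 0.425. The mean difference over the receptor genes was 0.101 percentage points (H4K12 minus H3K18), and -0.684 over all genes. A call at the smallest p needed 104 genes to reach it, and 95 did. A call at a larger p needed more genes, and did not occur either. A gene with a region in few libraries cannot come near the smallest p.

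The lowest difference among receptor genes was that of OR10S1, with a mean of 1.92% covered in H4K12 and 8.47% in H3K18 libraries (difference -6.56, exact p 0.167, adjusted 0.563). OR8B4 and OR52I1 followed with -1.92 and -1.33 points, each with regions of H3K18ac libraries only. OR51T1 was highest, with 4.49% in H4K12 and 0% in H3K18 libraries (exact p 0.250, adjusted 0.656). The regions lay in the coding exon, which is also within MMP26, and covered 11.1% in H4K12pr replicate 2, 11.5% in H4K12ac NaPr replicate 1 and 22.3% in untreated H4K12ac replicate 1. OR5L2 came next with 3.34 points, from 25.5%, 6.30% and 1.63% in single replicates of H4K12pr, H4K12ac NaPr and H4K12ac NaBu, and OR4D11 with 2.31. None of these passed the test, and each rests on at most 5 libraries.

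Counted by presence, few receptor genes separated the histone sites. In untreated acetyl libraries OR52B2 and OR8D1 had a region in both H4K12ac and neither H3K18ac library (0.729% of all genes), and 0 the reverse (1.08%). In NaPr acetyl libraries there were 3 (OR52B2, OR52E4 and OR52N2; 1.19% of all genes) against 1 (OR2AT4; 6.1%). In propionyl libraries there was 1 (OR9G1; 1.99%) against 0 (0.928%). Butyryl libraries gave 0 against 0 (0.309% and 6.29% of all genes) and NaBu acetyl libraries 0 against 0 (0.0399% and 6.46%).

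Propionyl and butyryl marks were compared with acetylation of the same site and treatment within NaPr and within NaBu. In the NaPr strata mark and run tag cannot be told apart, while the NaBu libraries share a tag. The test and the mean differences pool both. No receptor gene was called different, and no gene at all passed the same exact test over 4 strata (0% higher and 0% lower in acyl, of 20033; 1296 arrangements, smallest p 0.00154). At an unadjusted p under 0.05 there were 37 genes higher (0.185% of all genes) and 592 lower (2.96%) in acyl libraries, and 0 receptor genes. A gene with a region in few libraries cannot come near the smallest p here either. The lowest receptor p was 0.0556, with an adjusted p of 1. A call at the smallest p needed 619 genes to share it, and 24 did. A call at a larger p needed more genes, and did not occur either. The mean difference was -0.215 points over receptor genes and 0.451 over all genes. OR52B4 (-2.38 points), OR4D6 (-2.13) and OR4C15 (-1.82) were lowest and had regions in acetyl libraries only, and OR5L2 (2.19), OR10S1 (2.16) and OR5M10 (1.81) were highest.

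Few receptor genes were held by both replicates of one mark and by no library of the other. At H3K18 in NaPr, 0 genes belonged to H3K18pr (0.889% of all genes) and 3 to H3K18ac (1.82%), namely OR2AT4, OR51E2 and OR52A5, so that the acetyl share of the receptor genes, 1.74%, was near that of all genes. For H4K12 in NaPr, 1 gene belonged to H4K12pr (6.57%), OR9G1, and 4 to H4K12ac (1.49%), OR52A5, OR52B2, OR52I2 and OR52K1. Without single libraries these differences ran from -15 to 4 (H3K18) and from -27 to 0 (H4K12), counted as propionyl minus acetyl genes. Both were 0 when lists were cut to equal length. The H3K18pr, H3K18ac NaPr and H4K12pr libraries then had no coverage of receptor genes left. The H3K18 difference could thus only be 0, and the H4K12 difference could not favour H4K12pr. In NaBu the counts were 0 and 0 at H3K18 (0.03% and 24.1% of all genes) and 0 and 0 at H4K12 (0.025% and 6.43%).

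Acetylation in treated and untreated cells was then compared by presence and was not tested. An exact permutation test over both histone sites would have 36 arrangements for NaPr against untreated cells and could not give a p below 0.0556. H3K18ac reached 4 receptor genes in NaPr only (0.534% of all genes), and 0 genes in untreated cells only (0.844%). These were OR2AT4, OR51E2, OR52A5 and OR52I2. H4K12ac reached 5 in NaPr only (1.23%), against 0 in untreated cells only (7.35%), namely OR51E1, OR52A5, OR52I2, OR52K1 and OR52N2. These libraries share a run tag. OR52A5, a class I receptor, had a region in all 4 acetyl libraries of NaPr cells and in no other immunoprecipitated library. Regions covered 2.37% and 4.34% of its window in H3K18ac and 2.41% and 3.93% in H4K12ac. In 3 of the 4 libraries they overlapped at one site in an untranslated exon (chr11:5128979-5129522), with folds of 2.52 to 3.03, and that of H4K12ac replicate 1 lay in an intron (3.16). The NaBu input had a region in the upstream flank.

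The other genes named here had bodies of 10852 to 17684 bp, and in most of them the regions of the replicates lay apart. At OR52K1 both H4K12ac NaPr replicates shared a site (chr11:4493069-4493348) with folds of 2.05 and 2.16, which untreated H3K18ac replicate 2 also held at 3.60. At OR52N2 both shared a site at the start of the gene with folds of 2.01 and 2.33, which H4K12pr replicate 1 held at 2.91 and which also lies in TRIM5. OR51E1, OR52I2, OR51E2 and OR2AT4 had no such overlap between replicates of a group. Regions of the NaPr input lay at OR52I2, OR52K1, OR52N2 and OR2AT4 too. With 1 library left in a group, a gene needs only that library to count. Without H3K18ac NaPr replicate 1 there were 13 more genes in NaPr alone than in untreated cells alone, and without untreated H3K18ac replicate 1 there were 9 fewer (-9). For H4K12ac the net count was -3 without untreated replicate 2.

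In NaBu cells, H3K18ac had OR9G1 in both replicates and in no untreated library (0.529% of all genes) and OR10S1 the reverse (3.28%). H4K12ac had 0 (0.105%) against OR52B2 (13%). These groups differ in run tag as well as in treatment.

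Genes of olfactory signalling outside the receptor family were described in the same way. Of 15 such genes, 3 had a region at the start site in at least 10 immunoprecipitated libraries, against 50.7% of all protein-coding genes, namely GNAL, which encodes the olfactory G protein subunit, ADCY3, the adenylyl cyclase of odorant signalling (14 libraries each), and CNGA4, a channel subunit (18). CNGA2, RTP1, a chaperone of receptor transport, and EMX2, a transcription factor, had 0. Of the receptor genes, 111 of 172 had 0 and 61 had a region at the start site in at least 1 library.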

How the data were processed

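ChIP-seq had been done on SW480 cells. Per the labels and the study's methods, the authors aligned reads to hg38 with Bowtie2 2.3.1 and called peaks with MACS2 2.1.0 against input at p 0.01, 1 library at a time, then removed blacklisted regions. The control used for the input lists is not given in the sources used here. The deposited lists give each region's fold enrichment over local background (a ratio), its −log10 p-value and its −log10 q-value, not reads. The members and gene lists were chosen with earlier results of these data known.

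From the lists, base pairs covered and genes with a region were computed in Python 3.11.15 (numpy 2.4.6, pandas 2.3.3, SciPy 1.17.1) over GENCODE 44 gene bodies with 1 kb on both sides. Pileup and depth were solved from fold and p within 0.01 of a whole number. Differences across all genes were tested with two-sided exact permutation tests within strata of acyl group, histone site and treatment, with Benjamini-Hochberg adjustment over 20033 genes at 0.05. The test was tried on simulated data, with changes planted only in genes covered in every stratum. It therefore does not show how well the test finds changes in receptor genes, most of which had few regions. Same-numbered H4K12 and H3K18 libraries deviated together in all 5 strata (correlations of 0.151 to 0.350). The main tests did not pair them. Pairing by number, taken from the data and not the labels, was run only as an alternative (the replicate block). P-values measure the spread between these libraries, which may be technical. DiffBind, used in the study on reads, was not used here. Named genes were the 10 with the most immunoprecipitated libraries, the 5 with the most inputs, the 5 longest without any region and the 3 lowest and 3 highest differences of each test, beside the genes that one group of a pair held in both libraries and the other in none. Alternatives changed the q threshold, list length, flank, overlap, denominator, scaling, the libraries and the replicate block.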

Additional observations from a re-analysis of the deposited data

How the results depend on the processing

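The low coverage in immunoprecipitated libraries kept its direction in all alternatives run, with a mean log2 ratio of -3.12 to -2.14, and of -2.46 to -2.23 without single libraries. With the 8158 strongest regions of each list, only 4 libraries had any coverage. The mean log2 ratio of the inputs (0.49) became 1.32 at q under 0.001 in 2 inputs, while the NaBu input had no coverage left and so no log2 ratio. It became 0.15 as a mean over genes and -0.18 against chromosome 11, an alternative chosen after seeing the data. Without single inputs it was 0.34 to 0.62. The log2 ratio of the untreated input alone fell below 0 against gene windows (-0.19), as a mean over genes (-0.83) and against chromosome 11 (-0.72). That of the NaBu input did so against chromosome 11 (-0.11).

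Between histone sites, 1033 genes were called on percentages over the library mean and 95 among genes with a region in 4 or more libraries, 0 of them receptor genes, and 0 to 344 without single libraries. These were 344 without H4K12pr replicate 1, 108 without H3K18pr replicate 2, 114 without H3K18bu replicate 2 and 113 without H3K18ac NaPr replicate 1. Between acyl and acetyl marks 0 genes were called in all settings (0 to 0 without single libraries). The replicate block gave 0 calls in both tests, with smallest p of 0.00195 and 0.00781. These are larger than the smallest p of the main tests, 0.000257 and 0.00154, so a call needed more genes at the smallest p. The 0 calls therefore do not show that pairing makes no difference. Same-numbered libraries of the acyl and treatment comparisons had correlations of 0.0541 to 0.315, not all over 0.1, and share only a number. The NaBu strata alone were not run, since their smallest p is 0.0556.

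Net counts of one-sided receptor genes were small and moved with most settings, and the cause was not tested. At equal list lengths only 4 immunoprecipitated libraries kept any coverage of receptor genes. The H3K18 counts and that of H4K12ac in NaBu against untreated could therefore only be 0 there. H3K18pr minus H3K18ac (-3) became -1 at q under 0.001, 0 at equal list lengths, -6 with 5 kb flanks, and -15 to 4 without single libraries. H4K12pr minus H4K12ac (-3) became -1 at q under 0.05, 0 at q under 0.001, at equal lengths and at 200 bp covered, -12 with 5 kb flanks, and -27 to 0. H3K18bu minus H3K18ac (0) became -2 at both q thresholds, and -10 to 0. H4K12bu minus H4K12ac (0) ran from -13 to 1. H3K18ac in NaPr minus untreated (4) became 2 at q under 0.001, 0 at equal lengths, and -9 to 13. H4K12ac in NaPr minus untreated (5) became 3 at q under 0.05 and at 200 bp, -1 at q under 0.001, 0 at equal lengths, 11 with 5 kb flanks, and -3 to 24. H3K18ac in NaBu minus untreated (0) became -1 at q under 0.05 and without input peaks, 1 with 5 kb flanks, and -18 to 7. H4K12ac in NaBu minus untreated (-1) became 0 at q under 0.001 and equal lengths, -4 with 5 kb flanks, and -13 to 8. Between H4K12 and H3K18 the net count ran without single libraries from -2 to 1 for butyryl, from -9 to 9 for acetyl in NaBu, from -8 to 10 for propionyl (-8 and -4 without H3K18pr replicates 1 and 2), from -6 to 21 for acetyl in NaPr (-6 and -2 without H3K18ac replicates 1 and 2, and -1 at q under 0.001), and from -12 to 11 for untreated acetyl (-12 without H3K18ac replicate 1).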
